A study of Homo sapiens with 4 samples.

Results

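MEIS1/2 binding was examined at 9 genes of the network of EYA-, SIX- and DACH-family proteins: EYA1, EYA2, EYA3, EYA4, SIX2, SIX3, SIX4, SIX6 and DACH1, which are 9 of the 20162 protein-coding genes in the annotation used (GENCODE 44 on GRCh37). The genes were listed by name, and a binding site was assigned to a gene when its summit, the base with the highest signal, lay in the gene body or within 250 kb of either end. The assay was ChIP-seq, the sequencing of DNA that an antibody pulls down with its protein, and the cells were hNSC, commercial human neural stem cells kept untreated in medium without serum. There were 2 MEIS ChIP samples and 2 Input samples of the same cells, the Input being sheared chromatin without immunoprecipitation, and the authors used it as the control when they called peaks. A mixture of an anti-MEIS1/2A and an anti-MEIS1 antibody was used, so MEIS1 and MEIS2 cannot be told apart at a site. The study describes 2 batches of cells, and alternative washes of the precipitate, but it is not given which replicate had which. Whether the replicates were washed alike is therefore unknown. The files used here hold peaks and no expression values. Neither the identity of the cells nor the expression of the 9 genes was checked from them. The study also ran RNA-seq on hNSC with MEIS1 or MEIS2 overexpressed or knocked out, and those values were not used here. From both assays it names DACH1 as upregulated by MEIS1 and predicts direct regulation, with intronic and upstream binding sites.

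EYA-, SIX- and DACH-family proteins form a network with PAX factors that was first worked out in the fly eye, where the genes are eyes absent, sine oculis, dachshund and eyeless. SIX-family proteins bind DNA through a homeodomain, EYA proteins are coactivators with phosphatase activity that join SIX-family proteins at their targets, and DACH proteins act mostly as corepressors. In vertebrates the network is known for its part in eye, ear, kidney, muscle and craniofacial development, and SIX3 and SIX6 also pattern the anterior forebrain. Homothorax, the fly counterpart of MEIS, works beside the same network in the eye disc.

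The core of the MEIS binding motif is TGACAG, which appears as its reverse complement where it lies on the other strand, and the sequences that follow show it at sites described in the paragraphs on each gene. Each is 60 bases of the GRCh37 plus strand, written 5′ to 3′ in lower case with TGACAG in capitals on whichever strand it was read. For SIX3, SIX6 and the first DACH1 line, the strongest site of the gene that held the motif is shown. The last pair of DACH1 lines is shown because among DACH1 sites the motif lay nearest to the summit there. SIX4 had no site with the motif, and DACH1 is transcribed from the minus strand, so its lines run against the gene.
SIX3, 235 kb upstream, chr2:44934189-44934248: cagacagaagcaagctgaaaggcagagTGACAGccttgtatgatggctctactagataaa
SIX6, 159 kb upstream, chr14:60816951-60817010: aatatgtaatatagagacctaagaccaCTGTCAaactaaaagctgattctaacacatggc
DACH1, beyond the 3′ end, chr13:71974384-71974443: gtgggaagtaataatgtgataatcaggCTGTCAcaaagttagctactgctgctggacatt
DACH1, 70.3 kb upstream, chr13:72511629-72511688: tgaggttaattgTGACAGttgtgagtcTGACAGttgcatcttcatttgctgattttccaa
DACH1, intron 1, chr13:72406149-72406208: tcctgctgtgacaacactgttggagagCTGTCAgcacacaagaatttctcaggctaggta

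The 9 genes had 16 distinct reproducible sites, out of 5169 in the authors' list, and 6 of the 9 genes had at least 1 (66.7%). Among all protein-coding genes, 47.5% had at least 1 site in windows made the same way. DACH1 had 7 sites, EYA1 had 4, SIX3 and SIX6 had 2 each, SIX2 and SIX4 had 1 each, and EYA2, EYA3 and EYA4 had 0. The median was 1 site per gene for the 9 genes and 0 for all protein-coding genes. Joined together, the windows covered 5.31 Mb and held 3.01 sites per Mb, against 1.67 per Mb of the full lengths of the reference chromosomes. The density was uneven. It was 7.53 per Mb at DACH1, 4.47 at EYA1, 3.97 at SIX3 and SIX6, 1.98 at SIX2, 1.94 at SIX4, and 0 at EYA2, EYA3 and EYA4. The windows of SIX2 and SIX3 overlap, as do those of SIX4 and SIX6, and the single SIX2 site is also a SIX3 site. With 1 kind of cell and 2 replicates, no difference between these genes and others could be tested over samples, and all comparisons are descriptions.

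**Figure D1:**
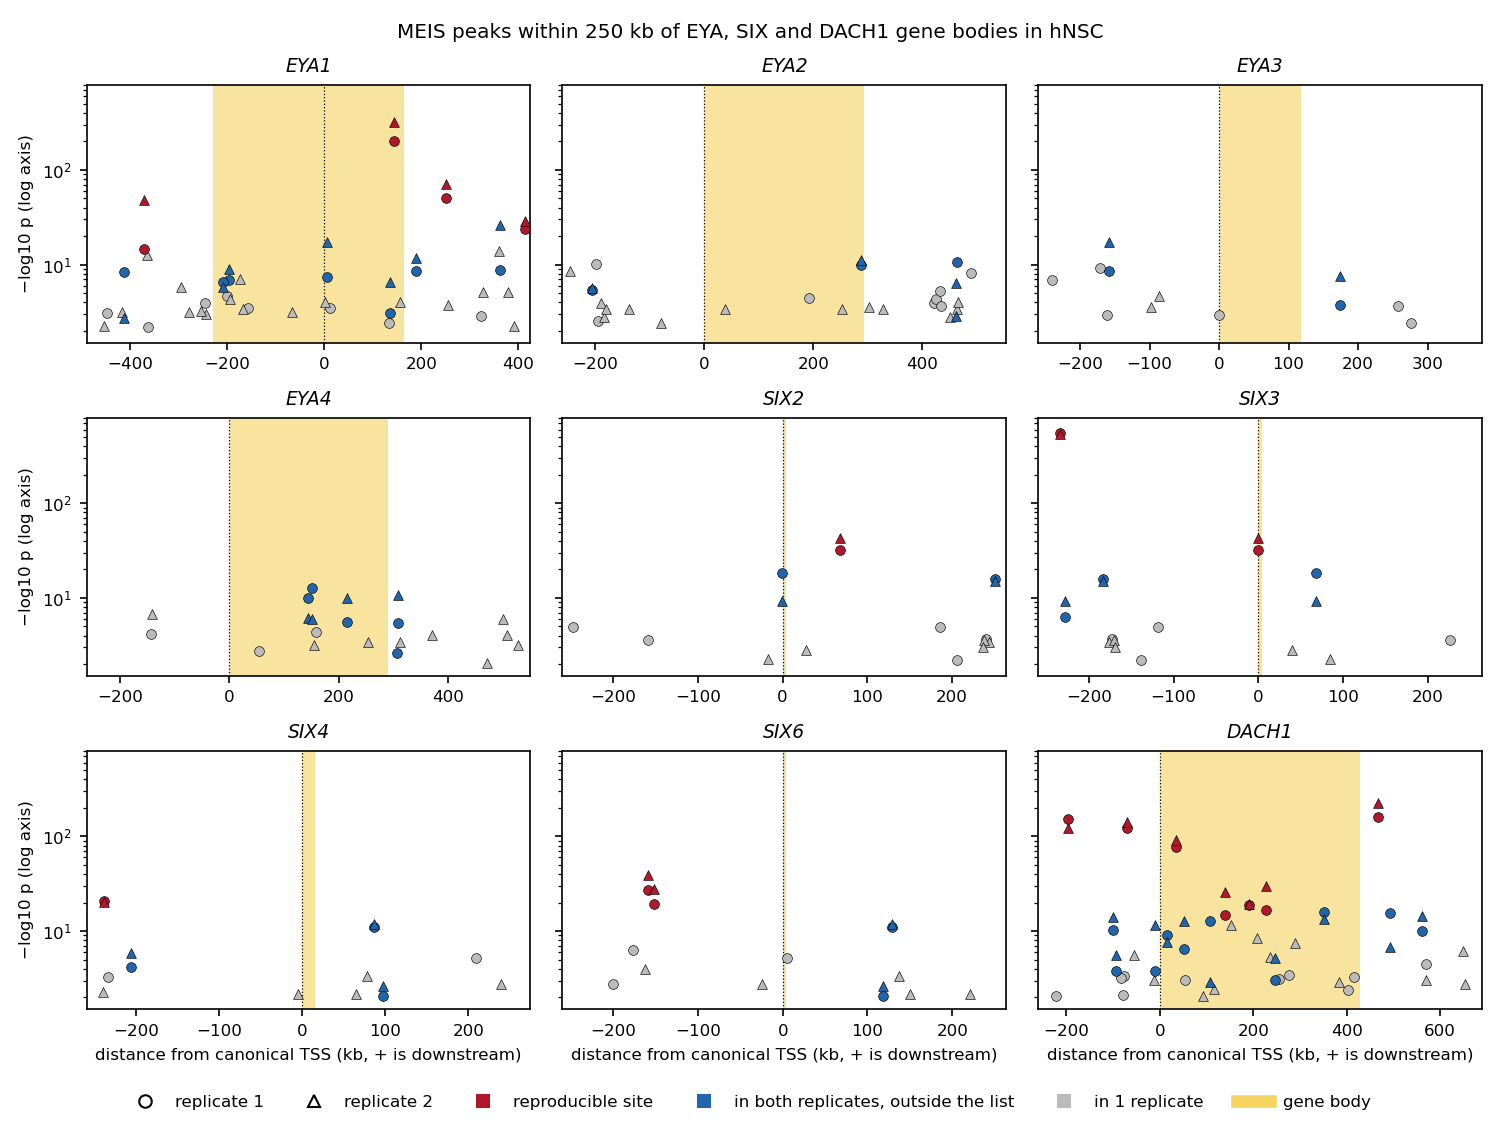
MEIS peaks of replicate 1 (circles) and replicate 2 (triangles) around each of the 9 genes, by distance of the summit from the canonical transcription start site (kb, positive in the direction of transcription) and −log10 p on a log axis. Red marks reproducible sites, blue marks peaks found in both replicates but outside the authors' list, grey marks peaks of 1 replicate, and the yellow band is the gene body. DACH1 has 7 sites on both sides of its start and EYA1 has 4, while EYA2, EYA3 and EYA4 have no red points.

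Because long genes have long windows, each gene was set beside the 200 protein-coding genes nearest to it in body length. The median of these like-length genes was 1 site for DACH1 and the 4 EYA genes, 0.5 for SIX2 and 0 for SIX3, SIX4 and SIX6. The share of them with at least 1 site ran from 45.0% (SIX4) to 72.5% (DACH1). Of the genes as long as DACH1 (382 to 477 kb), 7 of 200 (3.5%) had 7 sites or more, and their median was 1 site. For EYA1, 36 of 200 genes had 4 sites or more. Of the like-length genes, 18.5% had at least as many sites as SIX3, 16.5% as SIX6, 45.0% as SIX4, and 100 of 200 as SIX2. Some of these shares changed with the distance. With 100 kb they were 26.5% for SIX3, 28.5% for SIX2 and 33.5% for EYA1, while SIX4 and SIX6 had 0 sites. With 500 kb they were 7.5% for SIX3, 7% for SIX2, 19.5% for SIX4, 21.5% for EYA1 and 14.5% for SIX6. The DACH1 share was 3% with 100 kb and 5% with 500 kb. At least 1 site was present at 70.0%, 59.0% and 69.0% of the genes as long as EYA2, EYA3 and EYA4. Over all protein-coding genes, 85 (0.422%) had as many sites as DACH1 or more, up to a maximum of 17. DACH1 and EYA4 had no other protein-coding gene in their windows, EYA1 had 1, and EYA3 had 15.

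**Figure D2:**
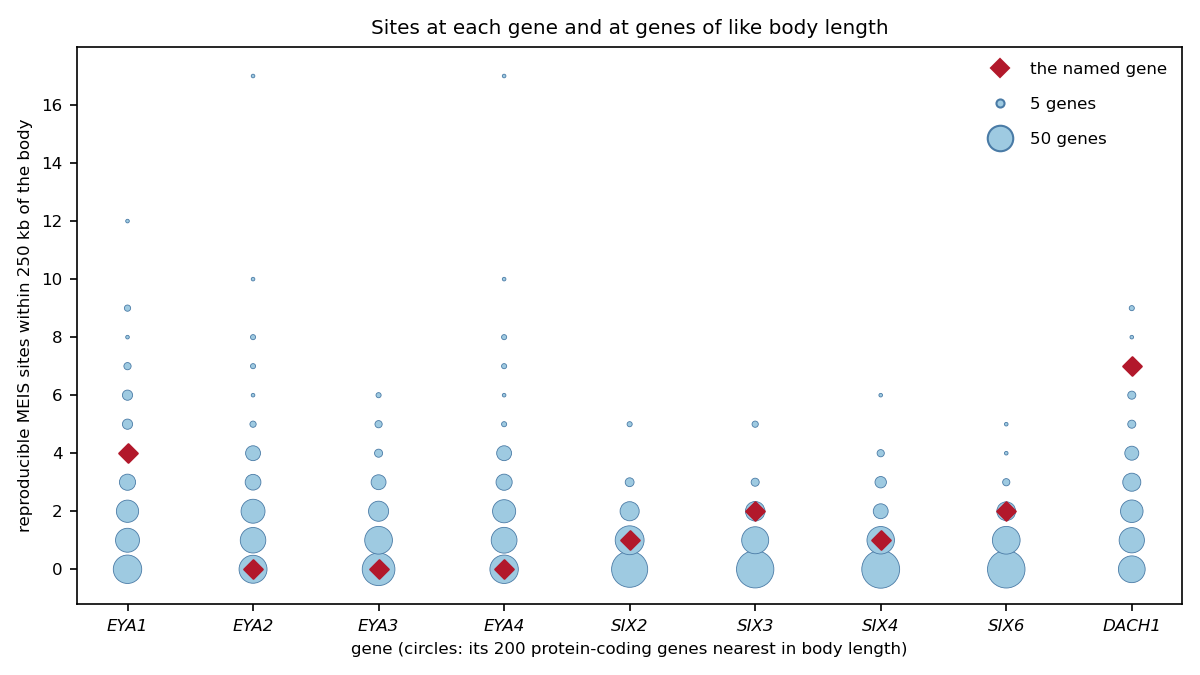
Number of reproducible MEIS sites within 250 kb of the body of each gene (red diamonds) and of its 200 protein-coding genes nearest in body length (blue circles, area in proportion to the number of genes). DACH1, with 7 sites, stands above all but 7 of its like-length genes, and EYA2, EYA3 and EYA4 stand at 0.

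Of the 4 EYA genes, the EYA coactivators, only EYA1 had reproducible sites within 250 kb. With 500 kb, EYA2, EYA3 and EYA4 had 1 each, and 82%, 78.5% and 82% of their like-length genes had 1 or more. EYA1 (ENSG00000104313, chromosome 8 from 72109668 to 72504260, minus strand) encodes a coactivator whose mutations cause branchio-oto-renal syndrome. Its strongest site, from 72130515 to 72131911 in intron 12 of the canonical transcript, lay 143 kb downstream of the canonical transcription start site (TSS). That site had a −log10 p of 204 (replicate 1) and 322 (replicate 2), a fold enrichment over input of 21.3 and 51.4, and rank 290 of the 5169 sites by −log10 p. The −log10 p comes from the peak caller's comparison of ChIP with Input at the summit, and a higher value is a stronger peak. The site stands in the top 5.61% of the list, although no TGACAG was present in the 500 bp centred on its summit.

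Both sites beyond the 3′ end of EYA1 were weaker. One lay 85.5 kb past the end of the body, with a −log10 p of 50.1 and 71.0 in replicates 1 and 2 and rank 1506. The other lay 249 kb past the end, close to the limit of the window, with a −log10 p of 23.6 and 28.6. The latter lay nearer to the TSS of XKR9, at 279 kb, than to that of EYA1. The last site lay 141 kb upstream of the body and 371 kb upstream of the canonical EYA1 TSS. It had a −log10 p of 14.5 (replicate 1) and 47.7 (replicate 2). Its TGACAG was centred 0.5 bp from the summit, and its nearest TSS was that of MSC, a basic helix-loop-helix factor, at 111 kb. Relative to replicate 1, this was the EYA1 site at which replicate 2 was highest.

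Peaks were also found at EYA2, EYA3 and EYA4, but none entered the list of reproducible sites, where the lowest −log10 p was 12.5. Values above 12.5 did not ensure entry. A shared peak 183 kb upstream of SIX3, in intron 9 of CAMKMT, had 15.9 (replicate 1) and 15.2 (replicate 2) and was outside it. So was a shared peak in intron 6 of DACH1, with 16.0 and 13.5. EYA4, a gene known from inherited deafness and heart disease, had 8 peaks in replicate 1 and 13 in replicate 2. In each replicate 3 EYA4 peaks inside introns overlapped a peak of the other. In intron 3, the pair 151 kb from the TSS had a −log10 p of 12.8 (replicate 1) and 5.97 (replicate 2). A second pair in intron 3, 145 kb from the TSS, had values of 9.91 and 6.11. The pair in intron 6 had values of 5.58 and 10.1. The lower value of each of these pairs was below the lowest in the list, and the first and the last pair held TGACAG. A further shared peak lay 17.4 kb past the end of EYA4, with values of 5.44 (replicate 1) and 10.8 (replicate 2). It was the strongest EYA4 peak of replicate 2, and its window held 2 TGACAG.

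EYA2 had 11 peaks in replicate 1 and 17 in replicate 2. In intron 14, 287 kb from its TSS, a peak had a −log10 p of 9.91 (replicate 1) and 11.1 (replicate 2), with TGACAG in the window. The remaining shared peaks in the EYA2 window lay close to the starts of other genes, within 1.1 kb of ZMYND8 and 0.119 kb of TP53RK. EYA3, a broadly expressed member of the family, had 8 peaks in replicate 1 and 4 in replicate 2. No EYA3 peak shared by the replicates lay inside the gene. The stronger of the 2 shared peaks lay 158 kb upstream, with a −log10 p of 8.64 and 17.5, and its nearest TSS was that of ATP5IF1 at 10.8 kb. The other lay within 0.336 kb of the RPA2 TSS. Of the genes as long as EYA3, 93.0% had 4 peaks or more in replicate 2. The median over like-length genes was 11 and 14.5 peaks for EYA2, 8 and 11 for EYA3, and 11 and 14.5 for EYA4, in replicates 1 and 2.

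The SIX-family genes encode the DNA-binding partners of the network. SIX3 (ENSG00000138083, chromosome 2 from 45168841 to 45173210, plus strand), needed for forebrain and eye formation and mutated in holoprosencephaly, had the strongest of the 16 sites. This site, from 44932536 to 44934905, lay 235 kb upstream of the SIX3 TSS in intron 5 of CAMKMT, a lysine methyltransferase of calmodulin. It had a −log10 p of 545 (replicate 1) and 544 (replicate 2), a fold enrichment of 33.9 and 76.1, and rank 87 of the list. Its 500 bp window held 2 TGACAG, one centred 7.5 bp from the summit. Although it lay within CAMKMT, the nearest canonical TSS was that of SIX3. Ranked by the lower of its fold enrichments, it was number 140. With gene bodies extended by 100 kb in place of 250 kb, SIX3 kept 1 site.

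The second SIX3 site lay at the promoter, with its summit 95 bp before the TSS and its limits from 45168338 to 45168997. It had a −log10 p of 32.1 (replicate 1) and 43.3 (replicate 2), a fold enrichment of 6.80 and 13.5, and rank 2362. TGACAG was centred 10.5 bp from its summit. This was the only one of the 16 sites with a canonical protein-coding TSS less than 5 kb away (6.25%), against 8.43% of all sites. The same site is the only one in the window of SIX2, from whose TSS it lay 67.8 kb away.

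SIX2 (ENSG00000170577, chromosome 2 from 45232321 to 45236591, minus strand), which maintains nephron progenitors in the kidney, had a weaker peak at its own promoter in both replicates. The summit lay 183 bp before the TSS in replicate 1 and 131 bp before it in replicate 2. The −log10 p was 18.1 and 9.32, and the fold enrichment 4.90 and 4.95. This peak was outside the authors' list, with the lower −log10 p in replicate 2, whereas the SIX3 promoter site had the higher −log10 p there. Both promoters thus had a peak in each replicate, and that of SIX3 alone was in the list.

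The SIX2 promoter is shown because the peak covers it. It is the RefSeq sequence from 250 bases before to 50 after the start (GRCh38.p14, chr2:45009403-45009702, minus strand, written in the direction of transcription), and the same bases were found in GRCh37 from 45236542 to 45236841. TGACAG is in capitals on either strand.
SIX2 promoter: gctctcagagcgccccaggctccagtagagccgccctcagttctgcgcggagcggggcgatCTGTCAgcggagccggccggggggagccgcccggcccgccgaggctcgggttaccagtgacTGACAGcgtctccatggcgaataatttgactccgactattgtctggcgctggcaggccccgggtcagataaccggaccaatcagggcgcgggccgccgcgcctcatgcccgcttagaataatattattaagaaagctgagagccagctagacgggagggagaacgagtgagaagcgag
The 2 occurrences lay near the summits. The replicate 1 summit was 3.5 bp from the centre of one, and the replicate 2 summit was 5.5 bp from the centre of the other. Of 21579 RefSeq promoters of protein-coding genes of this length, 14.8% held TGACAG on either strand, as did 3 of the 6 promoters matched among the 9 genes.

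SIX6 (ENSG00000184302, chromosome 14 from 60975864 to 60979568, plus strand), an eye and pituitary factor close in sequence to SIX3, had 2 sites 6.49 kb apart. The stronger spanned 60816735 to 60817595 at 159 kb before the TSS, with a −log10 p of 27.2 (replicate 1) and 39.2 (replicate 2) and rank 2780. Its TGACAG was 224.5 bp from the summit, at the edge of the window. The weaker lay 152 kb upstream, with values of 19.4 and 28.2 and no TGACAG. Both lay outside protein-coding genes, and both were nearer to the TSS of PPM1A, a protein phosphatase, at 101 kb and 108 kb.

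SIX4 (ENSG00000100625, chromosome 14 from 61176257 to 61191069, minus strand), a homeodomain factor of muscle and kidney development, had 1 site, from 61430268 to 61431071. It lay 240 kb upstream of SIX4 in intron 7 of MNAT1, and the TRMT5 TSS was only 17.1 kb away. Its −log10 p was 20.9 (replicate 1) and 20.1 (replicate 2), rank 3663, without TGACAG. When the list was replaced by the same number of strongest replicate 2 peaks, SIX4 had 0 sites.

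DACH1 (ENSG00000276644, chromosome 13 from 72012098 to 72441342, minus strand), a corepressor, had 4 sites in introns, 2 upstream and 1 beyond its 3′ end. DACH1 had the nearest canonical TSS at all 7 of them. Its strongest site, from 71973287 to 71975461, lay 37.8 kb beyond the gene's 3′ end and had rank 412, its −log10 p being 159 (replicate 1) and 223 (replicate 2). The summits of the replicates were 215 bp apart there, the widest gap among the 16 sites, and TGACAG lay 114.5 bp from the summit.

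Upstream of DACH1, the site 196 kb from the TSS had a −log10 p of 152 (replicate 1) and 124 (replicate 2), and rank 558. The site 70.3 kb upstream had values of 124 and 142, and rank 561. The sequence printed for this latter site holds 2 TGACAG, the nearer one centred 6.5 bp from the summit. In intron 1, 35.2 kb inside the gene, a site had a −log10 p of 78.0 and 91.7, rank 941 and TGACAG centred 1.5 bp from the summit. These 4 strongest DACH1 sites all held TGACAG. All had a global irreproducible discovery rate (IDR, the expected share of irreproducible sites) of 0.001 or less. Of all sites, 58.3% held TGACAG in 500 bp and 60.4% had such an IDR, but these 4 were picked by strength.

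The other 3 DACH1 sites, all intronic, were weaker. In intron 2, 190 kb from the TSS, the −log10 p was 19.0 (replicate 1) and 19.2 (replicate 2). In intron 2 at 228 kb, it was 16.7 and 29.7, with TGACAG 46.5 bp from the summit. In intron 1 at 138 kb, it was 14.9 and 25.8. These sites had ranks 3881, 4371 and 4813, and the 3 sites outside the gene were all stronger than these. DACH1 also had the most peaks of the 9 genes in replicate 1, with 27 there and 29 in replicate 2, where EYA1 had 29 too. Genes of like length had a median of 13 and 17. Of the DACH1 peaks, 17 in each replicate overlapped a peak of the other, and 10 of these were outside the list.

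**Figure D3:**
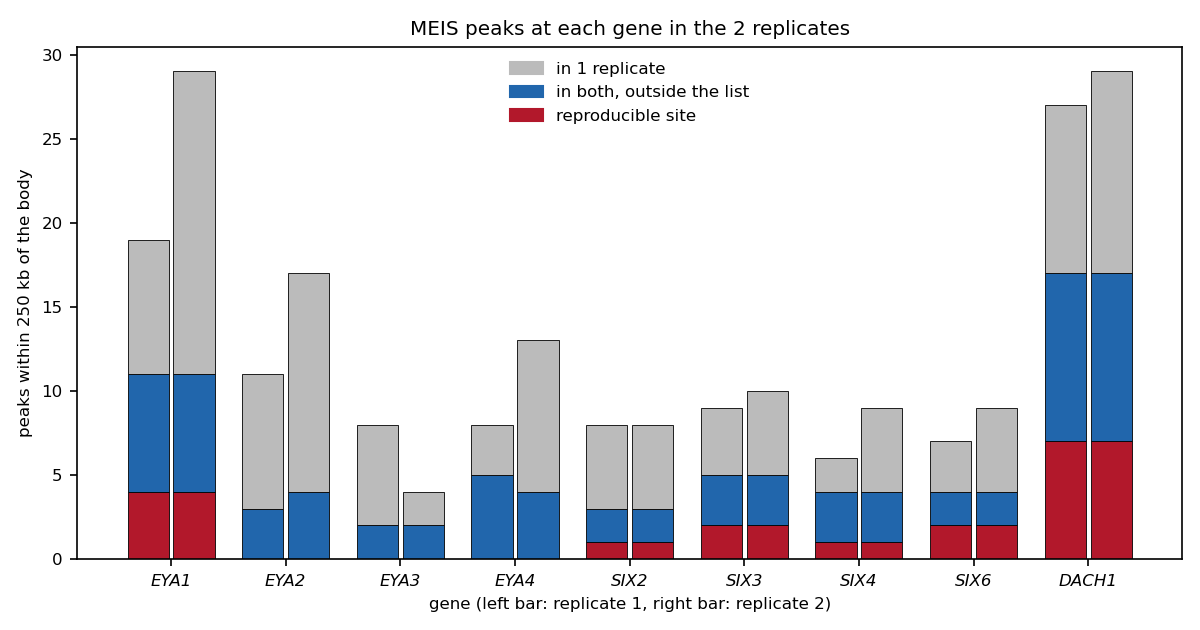
Number of MEIS peaks within 250 kb of each gene body in replicate 1 (left bar) and replicate 2 (right bar). Red is the part in reproducible sites, blue the part found in both replicates but outside the list, and grey the part found in 1 replicate. EYA1 has 19 and 29 peaks and DACH1 27 and 29, and peaks of 1 replicate make up much of every bar.

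The sites were compared with all reproducible sites for strength. Their −log10 p in the list, which is mostly the lower replicate value, ranged from 14.5 to 544. Its median was 29.7, against 29.3 for all sites. The median fold enrichment was 6.34 (replicate 1) and 13.5 (replicate 2), against 6.38 and 11.5. Fold enrichment was higher in replicate 2 at all 16 sites and at 97.4% of all sites, so the difference between replicates was common to the whole list. By −log10 p, replicate 1 was the stronger at 3 of the 16 sites and at 35.8% of all sites. In the top 10% of the list were 3 of the 16. An IDR of 0.001 or less was reached by 9 of the 16 (56.2%) and by 60.4% of all sites.

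**Figure D4:**
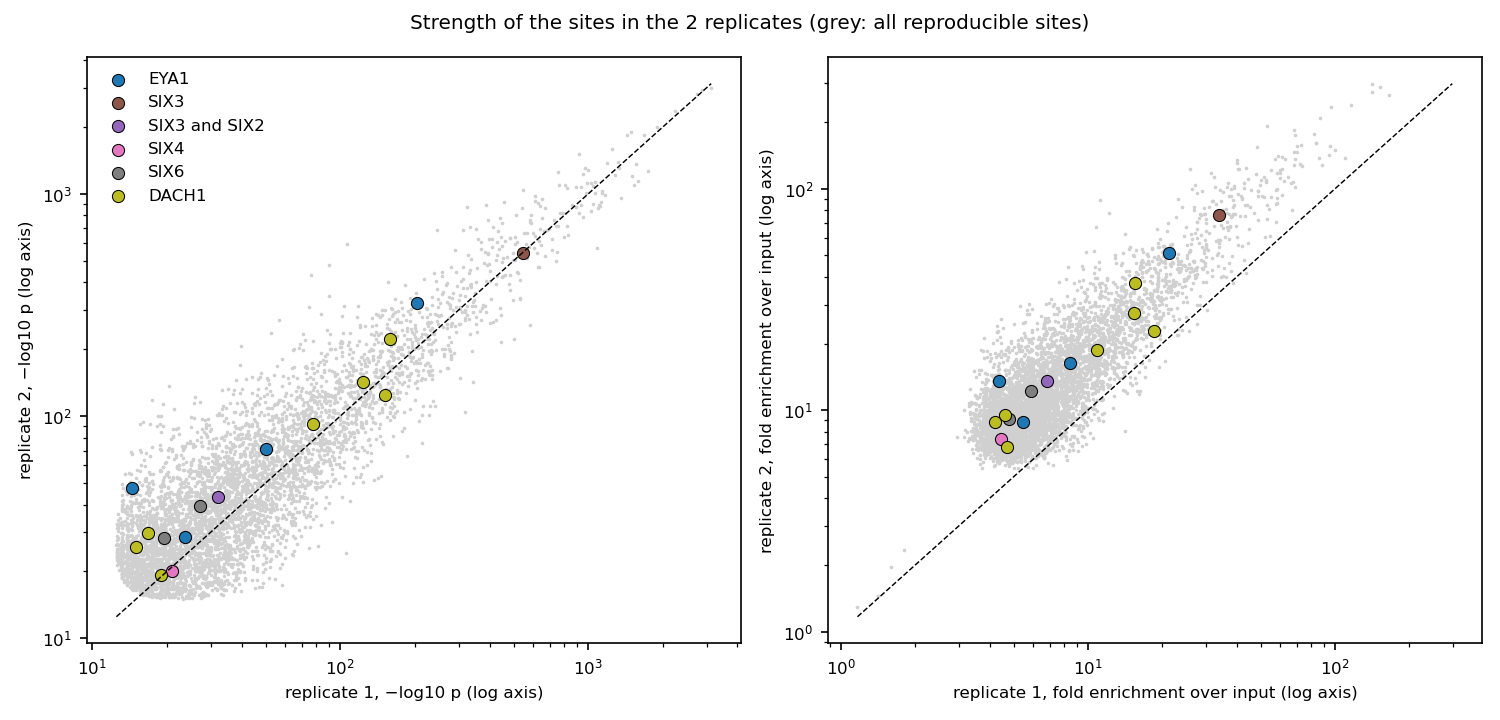
Strength of each reproducible site in replicate 1 (horizontal) and replicate 2 (vertical), as −log10 p (left) and as fold enrichment over input (right), on log axes with the line of equality dashed. Grey points are all 5169 sites and coloured points the 16 sites at the named genes. The SIX3 site at 545 and 544 lies on the line for −log10 p, and all 16 lie above it for fold enrichment.

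TGACAG was present in 10 of the 16 sites in 500 bp centred on the summit (62.5%, 95% Wilson interval 38.6 to 81.5), against 58.3% of all sites. In 200 bp it was present in 6 of the 16 (37.5%), against 46.4% of all sites. The PBX-MEIS composite (TGA, then T or G, then TGACAG) is bound by MEIS together with its partner PBX. It was found in 0 of the 16 (95% Wilson interval up to 19.4%) and in 4.93% of all sites. CATTCC, the core bound by TEAD factors, was present in 6 of the 16, against 38.2% of all sites. ACAAAG, a core bound by SOX factors, was also present in 6 of the 16, against 52.6%. TAATTA, a core bound by many homeodomain factors, was present in 4, against 18.2%. TCAGGTT, a core bound by SIX-family proteins themselves, was present in 2, against 6.35%. Both of these were EYA1 sites, those 85.5 kb and 249 kb past its end, and the latter held it at 2 places. All were searched on both strands, and TGACAG is part of the composite. The 95% Wilson interval of each share held the share of all sites, and such intervals cover counting error alone.

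Overlap of the replicates at these genes was compared with that of all peaks. Of 93 replicate 1 peaks at the 9 genes, 49 (52.7%) overlapped a replicate 2 peak, against 49.0% of all replicate 1 peaks. Of 114 replicate 2 peaks, 43.0% overlapped a replicate 1 peak, against 38.0%. For the 33 shared peaks outside the list, the median −log10 p was 8.35 (replicate 1) and 8.91 (replicate 2), and peaks of 1 replicate had 3.49 and 3.38. The strongest shared peak outside the list in replicate 2 lay past the end of EYA1, 362 kb from the TSS, with a −log10 p of 26.4 there and 8.71 in replicate 1.

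Other genes of the same network were counted in the same windows: SIX5, DACH2, PAX2, PAX3, PAX6, PAX7, PAX8, RAX, ATOH7, SKI and SKIL. At least 1 site was present at 6 of these 11, against 47.5% of all protein-coding genes, and their median was 1 site. PAX6, the vertebrate counterpart of eyeless, had 4 sites, with 0 of them in its body and 2 other protein-coding genes in its window. Of its 200 like-length genes, 0 had as many sites. Other distances were not run for these 11 genes. The strongest PAX6 site had a −log10 p of 229 and rank 258. PAX2 and SKI had 2 sites each, and PAX7, PAX8 and SKIL had 1 each. SIX5, DACH2, PAX3, RAX and ATOH7 had 0. DACH2, the paralog of DACH1, had 6 peaks in replicate 1 and 4 in replicate 2, of which none was shared, and 81.5% of the genes as long as DACH2 had a site.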

How the data were processed

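MEIS ChIP-seq was analysed from peak lists of 2 ChIP replicates, grouped by sample titles. Per the labels and the submitters' processing notes, reads of 36 bp were trimmed (cutadapt 1.16), mapped to GRCh37 (Bowtie2 2.3.0, SAMtools 1.2, mapping quality of at least 30) and freed of duplicates (Picard 2.15.0). Peaks were called by the authors for each replicate against Input with MACS2 (version not given in the sources used here) at p 0.01 and ran IDR 2.0.3 on both lists. The deposited values are a fold enrichment over input (a ratio), a −log10 p and −log10 q, an integer peak score, and for the reproducible sites an IDR score and the −log10 of the IDR. Peak lists hold no read counts, so depth is unknown. Reads in near-identical repeats were lost to the mapping filter. The 8 per-replicate columns of the reproducible list were not used. The values of a site in a replicate are those of its strongest overlapping peak.

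Summits were assigned to gene bodies extended by 250 kb, with the TSS of canonical transcripts, and windows of 500 bp were searched for motifs (Python 3.11.15, pandas 2.3.3, pysam 0.24.0, scipy 1.17.1, samtools 1.23.1). The counting steps were tested on simulated data. The genes, the lists and the rule (every member with its sites, or for those without sites their peaks, and sequences at the strongest site with TGACAG) were chosen with earlier results of these data known. No sequence is shown for the EYA1 sites or the SIX3 promoter site. The last pair of DACH1 sequences, the SIX2 promoter and the single peaks named were chosen after their values were seen. Some genes of the network list are not reported here. Alternatives changed the distance, list, overlap, window, like-length genes and replicates. Replicates may share more than separate cultures would, and no p-value was computed from them.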

Additional observations from a re-analysis of the deposited data

How the results depend on the processing

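The 16 sites became 9 with gene bodies extended by 100 kb, 24 with 500 kb, 9 at an IDR of 0.001 or less, and 39 when every pair of overlapping peaks was counted from a −log10 p of 5 upward. To leave out one or the other replicate, the list was replaced by the same number of strongest peaks of the replicate kept. The sites then ranged from 14 to 15, genes with a site from 5 to 6, and the share with TGACAG from 71.4% to 73.3%. The TGACAG share of all peaks in those lists was not computed, so that range has no like share beside it. Without replicate 1, SIX4 had 0 sites, and without replicate 2, SIX2 had 2. At 100 kb, 4 genes had a site, since SIX4 and SIX6 had 0, and EYA1 had 2. All 9 genes had a site at 500 kb, and also with overlapping peaks from a −log10 p of 5 upward, where EYA2 had 3, EYA3 had 1 and EYA4 had 4. At 500 kb, however, 82%, 78.5% and 82% of the genes as long as EYA2, EYA3 and EYA4 also had a site. The share of all protein-coding genes with a site was computed for the main list at 250 kb alone, so these counts have no such share beside them. Genes with a site fell to 3 (EYA1, SIX3 and DACH1) when each site was given to its nearest canonical TSS, since the SIX2, SIX4 and SIX6 sites lie nearer to other genes. TGACAG was in 37.5% in windows of 200 bp. Overlap of replicate 1 peaks at the 9 genes was 81.2% from a −log10 p of 5 upward and 64% at 100 kb. Over all replicate 1 peaks it was computed without these limits alone (49.0%), so neither value has a like share beside it. The cause of these changes was not tested. Of 129 alternative values, 49 moved past the limit set and 80 did not. No paired analysis was possible because Input entered these lists solely as the control of the peak calling. The unknown depth limits comparison of peak numbers between replicates.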

Other observations

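At 500 kb, 82%, 78.5% and 82% of the genes as long as EYA2, EYA3 and EYA4 had 1 site or more. Beyond the windows of 250 kb, EYA2, EYA3 and EYA4 each had 1 reproducible site within 500 kb of the body. That nearest to EYA4 lay 307 kb upstream of the body, outside protein-coding genes, with a −log10 p of 46.7 (replicate 1) and 23.7 (replicate 2). For EYA2 it lay 398 kb past the end, in intron 2 of NCOA3, with values of 95.3 and 85.6. For EYA3 it lay 403 kb past the end, in intron 3 of AHDC1, with values of 29.7 and 29.9. None of the 3 held TGACAG in 500 bp. The next site past the end of EYA1, at 274 kb, was stronger than 3 of the 4 inside its window, with a −log10 p of 118 (replicate 1) and 312 (replicate 2), and held 2 TGACAG. Upstream of DACH1, a further site at 332 kb had values of 26.9 and 27.7.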
